A study of Mus musculus with 17 samples.

Results

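The genes described here encode the cathepsins, the subunits of the vacuolar-type proton pump (V-ATPase) and the lysosome-associated membrane proteins, and their RNA was measured in testes of *Inha* KO and *Inha* WT mice. They were taken by symbol from the gene table, as every row named Cts, Atp6v or Atp6ap, or Lamp followed by its family letters or number, without pseudogenes. This gave 42 of the 23362 genes in the table, namely 13 cathepsins, 9 genes of the membrane sector of the V-ATPase (V0), 13 of its catalytic sector (V1), 3 accessory genes and 4 Lamp genes. *Inha* KO mice lack the inhibin alpha subunit and develop stromal tumours of the testis, and all animals were adult males on a C57/Bl6 background, aged postnatal day 48 to 52 by the age label and 53 to 55 by the collection protocol. Pieces were dissected from tumour regions (TM), from tubules next to tumours (TAT) and from grossly normal tubules far from tumours (N) of 3 KO animals (79781, 79813 and 79853), and WT testis came from 3 other animals (79783, 79811 and 79852). Each animal gave 1 library per region, except that KO animal 79813 gave 2 N, 2 TAT and 4 TM libraries from both testes, which were summed per region. The KO pieces were chosen by eye from mixed tissue, so N, TAT and TM hold several cell types.

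Cathepsins are proteases that digest proteins inside lysosomes, most of them in acid conditions. The V-ATPase makes the lysosome acid by pumping protons across its membrane. Its V1 sector hydrolyses ATP on the cytosolic face and turns a ring of V0 subunits through which the protons pass, and many subunits have isoforms encoded by separate genes that are used in different tissues. *Lamp1* and *Lamp2* coat the inner face of the lysosome membrane. In the testis, lysosomes of Sertoli cells and macrophages degrade engulfed germ cells and residual bodies, and the acrosome of spermatids is a related acid organelle that carries its own V-ATPase. Many lysosomal genes carry in their promoters the CLEAR element, whose core CACGTG is bound by the transcription factors TFEB, TFE3 and MITF in cultured cells.

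The core of that element was looked for in the RefSeq promoters of GRCm38.p6 (250 bases before to 50 bases after the start), which held an entry for 31 of the 42 genes. CACGTG, which reads the same on both strands, was found in the promoters of 9 of these 31 genes (29.0%), against 8.09% of all 27025 genes with a promoter and 10.5% of those tested here. The longer form TCACGTG, read on either strand and containing CACGTG, was found in 7 of them (22.6%), against 4.29% of all genes and 6.08% of those tested. By class, the core was found in 4 of 9 cathepsin genes (*Ctsa*, *Ctsd*, *Ctsf* and *Ctsl*), 3 of 7 V0 genes (*Atp6v0b*, *Atp6v0d1* and *Atp6v0e*), 1 of 9 V1 genes (*Atp6v1a*) and 1 of 4 Lamp genes (*Lamp1*). The stretches below are shown because they set genes that were higher in TM (*Ctsa*, *Ctsd* and *Atp6v0b*) beside 1 that was lower (*Lamp1*) and 1 that did not pass the test (*Atp6v1a*). They are given on the strand of the gene, in lower case with CACGTG in capitals, and lie on chr2:164833713-164833772 (plus strand) for *Ctsa*, chr7:142387888-142387947 (minus strand) for *Ctsd*, chr4:117887330-117887389 (minus strand) for *Atp6v0b*, chr8:13159081-13159160 (plus strand) for *Lamp1* and chr16:44139350-44139409 (minus strand) for *Atp6v1a*.
Ctsa: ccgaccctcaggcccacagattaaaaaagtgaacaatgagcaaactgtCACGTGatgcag
Ctsd: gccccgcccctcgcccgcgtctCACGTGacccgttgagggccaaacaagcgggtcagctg
Atp6v0b: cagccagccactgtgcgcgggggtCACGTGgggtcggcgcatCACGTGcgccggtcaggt
Lamp1: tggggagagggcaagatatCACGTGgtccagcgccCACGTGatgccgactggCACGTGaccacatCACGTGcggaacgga
Atp6v1a: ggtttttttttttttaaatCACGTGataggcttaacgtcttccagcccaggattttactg
The *Lamp1* stretch, the 80 bases before its start, held 4 copies of the core, the most of any of the 31 genes, and the 60 bases of *Atp6v0b* held 2. The promoters of *Ctsa* and *Ctsd* each held a further copy outside the stretch shown, at position 6 from the start for *Ctsa* and -245 for *Ctsd*. A match is a run of letters only and was not tested as a binding site.

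Before the genes themselves, the libraries were checked. Totals per library were 9139835 to 18995984 counts in TM, 17413667 to 25065616 in TAT, 24739160 to 32382283 in N and 6349358 to 35454195 in WT, the smallest being WT animal 79783. *Inha*, the gene removed in KO animals, was at 3.20 to 5.24 CPM in TM, 1.41 to 1.74 CPM in TAT and 0.510 to 1.55 CPM in N, against 62.9 to 70.6 CPM in WT, where CPM is the level of a gene relative to the TMM-scaled total of its library. Markers of the cell types that a piece could hold differed widely between regions. All 10 spermatid markers were called lower in TM and 4 in TAT, and their summed level was 462 to 3552 CPM in TM, 4568 to 11667 CPM in TAT and 19723 to 27007 CPM in N, against 27263 to 33358 CPM in WT. Markers of fibroblasts (6 of 6), endothelium (8 of 8), granulosa cells (5 of 5 tested) and red blood cells (5 of 5) were called higher in TM. Of all genes, 27.8% were called higher and 30.6% lower in TM, and 4.61% lower in TAT. *Foxl2* of the granulosa list was not in the gene table. The rest include *Inhba*, *Cyp19a1* and *Hsd17b1*, which the paper reports as raised in tumour regions, and the presence of granulosa cells was not tested. Leydig (3 higher and 4 lower of 8) and Sertoli markers (2 and 2 of 10) were mixed. The libraries are bulk RNA, so fewer or more cells of a type and less or more RNA per cell cannot be told apart in any value below.

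Most cathepsins and V0 subunits were called higher in TM, V1 subunits were mostly lower or not called, and the accessory and Lamp genes were split. Of the 42, 38 passed the filter on low counts and were tested, and 4 (*Ctsw*, *Atp6v0a4*, *Atp6v1g3* and *Lamp3*) did not. A gene was called changed by edgeR's quasi-likelihood test at a Benjamini-Hochberg adjusted p under 0.05 over all genes tested and a fold change above 1.5. Against WT, 22 of the 38 were called higher and 9 lower in TM, where 58.4% of all 19791 genes tested were called (27.8% higher and 30.6% lower). In TAT, 15 were called higher and 0 lower, against 19.0% of all genes (14.4% higher and 4.61% lower). In N, none was called, against 0.0404% of all genes, and 4 of the 38 had an unadjusted p under 0.05 (7.59% of all genes). DESeq2 called *Atp6ap1* and *Ctsl* higher (1.03% of all genes called). *Ctsl* was also called by edgeR on single pieces (0.219% of all genes), limma-voom on single pieces (0.139%) and edgeR on N and WT alone (0.941%). The median log2 fold change in TM was 3.03 for the 12 cathepsins tested, 1.01 for the 8 V0 genes, -0.67 for the 12 V1 genes, 1.70 for the 3 accessory genes and -0.76 for the 3 Lamp genes, beside -0.07 for all genes. With total counts as the scale in place of TMM, the median of all genes in TM moved by 0.32 to 0.25, and the calls among the 38 were 24 higher and 5 lower. Of all genes, 33.6% were then called higher and 27.1% lower.

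**Figure D1:**
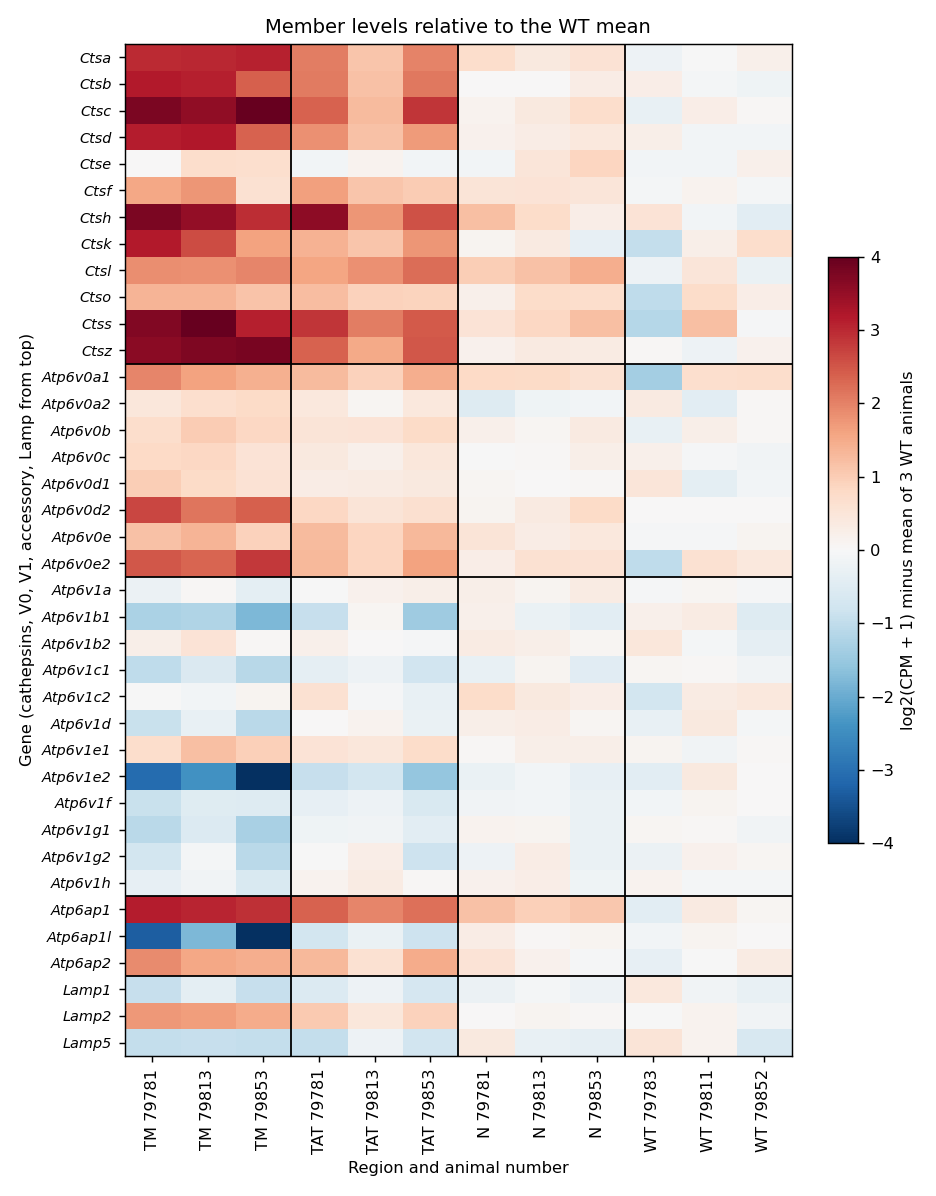
Level of each of the 38 tested genes (rows, grouped by class) in each region and animal (columns), as log2(CPM + 1) minus the mean of the 3 WT animals. Colours beyond 4 in either direction are shown as 4. Cathepsins form a red block in TM that is paler in TAT, while *Atp6v1e2* and *Atp6ap1l* are the bluest rows in TM.

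Of the 12 cathepsins tested, 11 were called higher in TM and none lower, and 9 were called higher in TAT. The largest log2 fold changes in TM were those of *Ctsc*, *Ctsz*, *Ctsh* and *Ctss*. *Ctsz*, which encodes a carboxypeptidase and lies on chr2:174427493-174439039, minus strand of GRCm38 by the GENCODE annotation, had 183, 198 and 209 CPM in TM, 76.5, 42.2 and 83.6 in TAT, 15.7, 18.3 and 17.8 in N and 14.5, 11.9 and 15.9 in WT, each given for KO animals 79781, 79813 and 79853 and for WT animals 79783, 79811 and 79852 in this order, as in all such values below. The TM animals lay above all TAT animals and these above all N and WT animals. The log2 fold change of *Ctsz* was 3.81 ± 0.28 (adjusted p = 1.33e-05) in TM and 2.26 ± 0.26 (adjusted p = 0.000857) in TAT, each ± its standard error.

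*Ctsc* (chr7:88278085-88310888, plus strand) encodes dipeptidyl peptidase I, which activates serine proteases of immune cell granules. It had 98.3, 83 and 202 CPM in TM, 36.2, 16.2 and 52 in TAT, 7.05, 8.43 and 10.9 in N and 4.95, 7.61 and 6.4 in WT, so that every TM and every TAT animal lay above the WT animals. Its log2 fold change was 4.32 ± 0.48 (adjusted p = 4.55e-05) in TM and 2.44 ± 0.44 (adjusted p = 0.00359) in TAT. TM of animal 79853 was the highest for *Ctsc* but the lowest of the 3 TM animals for *Ctsb*, *Ctsd*, *Ctsh*, *Ctss*, *Ctsf* and *Ctsk*. *Ctsh*, an aminopeptidase, had 85.6, 70.3 and 47.4 CPM in TM, 73.9, 20.3 and 35.5 in TAT, 13.6, 9.54 and 6.54 in N and 8.13, 4.86 and 3.67 in WT. TM did not overlap N or WT for *Ctsh*, but TAT of animal 79781 lay above TM of animals 79813 and 79853. For *Ctsh* edgeR gave log2 fold changes of 3.65 ± 0.51 (adjusted p = 0.000145) in TM and 3.00 ± 0.50 (adjusted p = 0.00251) in TAT.

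*Ctss*, which degrades the invariant chain in antigen-presenting cells, had 83.1, 103 and 55.1 CPM in TM, 45.8, 25.9 and 34.3 in TAT, 8.51, 10.5 and 14 in N and 1.94, 13.8 and 5.2 in WT. TM and TAT lay above WT without overlap for *Ctss*, and its log2 fold change was 3.47 ± 0.55 (adjusted p = 0.000288) in TM and 2.28 ± 0.53 (adjusted p = 0.0113) in TAT. The TAT call of *Ctss* was lost without KO animal 79781 (2.06, adjusted p = 0.102 by edgeR) or without WT animal 79852 (2.09, adjusted p = 0.0542 by edgeR). Most macrophage markers moved in the direction of these genes. Of 14 such markers, 9 were called higher in TM and 6 in TAT, and 1, *Aif1*, was called lower in TM. Their summed level was 579 to 1202 CPM in TM, 445 to 623 CPM in TAT and 449 to 483 CPM in N, against 362 to 589 CPM in WT, and none was at 0 in any region. *Aif1* made up most of that sum in N and WT. Without it, a step taken after its values were seen, the other 13 markers summed to 559 to 1094 CPM in TM, 287 to 444 CPM in TAT and 113 to 141 CPM in N, against 97.4 to 101 CPM in WT. *Lyz2*, the lysozyme of macrophages, had 773, 774 and 414 CPM in TM, 271, 153 and 203 in TAT, 42.4, 46.1 and 56.4 in N and 44.2, 38.7 and 35.3 in WT. *Lyz2* alone thus made up most of the sum of these 13 markers in TM and TAT. The part of macrophage RNA in the levels of the cathepsins was not tested.

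The cathepsins that act in most cell types were higher as well. *Ctsd* (chr7:142375911-142388038, minus strand), an aspartic protease, had 445, 464 and 257 CPM in TM, 178, 112 and 162 in TAT, 55.2, 61.3 and 66.6 in N and 57.8, 45.3 and 45.7 in WT. *Ctsb* (chr14:63122462-63145923, plus strand), a cysteine protease, had 848, 812 and 497 CPM in TM, 399, 213 and 406 in TAT, 93.7, 95.3 and 116 in N and 112, 89.3 and 82.2 in WT. *Ctsa*, a serine carboxypeptidase that protects beta-galactosidase and neuraminidase, had 129, 132 and 138 CPM in TM, 67.8, 34.2 and 64.2 in TAT, 25.7, 20.4 and 23.4 in N and 13.4, 15.5 and 17.9 in WT. For all of them each TM animal lay above each TAT animal, and each TAT animal above the N and WT animals. In TM the log2 fold change was 2.97 ± 0.28 (adjusted p = 3.23e-05) for *Ctsd*, 2.93 ± 0.31 (adjusted p = 3.88e-05) for *Ctsb* and 3.09 ± 0.27 (adjusted p = 2.97e-05) for *Ctsa*. In TAT it was 1.60 ± 0.27 (adjusted p = 0.00251) for *Ctsd*, 1.85 ± 0.30 (adjusted p = 0.00212) for *Ctsb* and 1.82 ± 0.26 (adjusted p = 0.00147) for *Ctsa*. These calls held under each alternative run against WT. Exons of *Ctsb* share 12.8% of their bases with *Fdft1* and those of *Ctsa* 10.5% with *Pltp*, both on the opposite strand. *Fdft1* went the other way from *Ctsb* in TM (log2 fold change -2.41), and *Pltp* the same way as *Ctsa* (2.12). Exons of *Ctsd* share 34.4% of their bases with *Gm49369* on the same strand, and the sources used here do not state outright whether counting used strand.

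**Figure D2:**
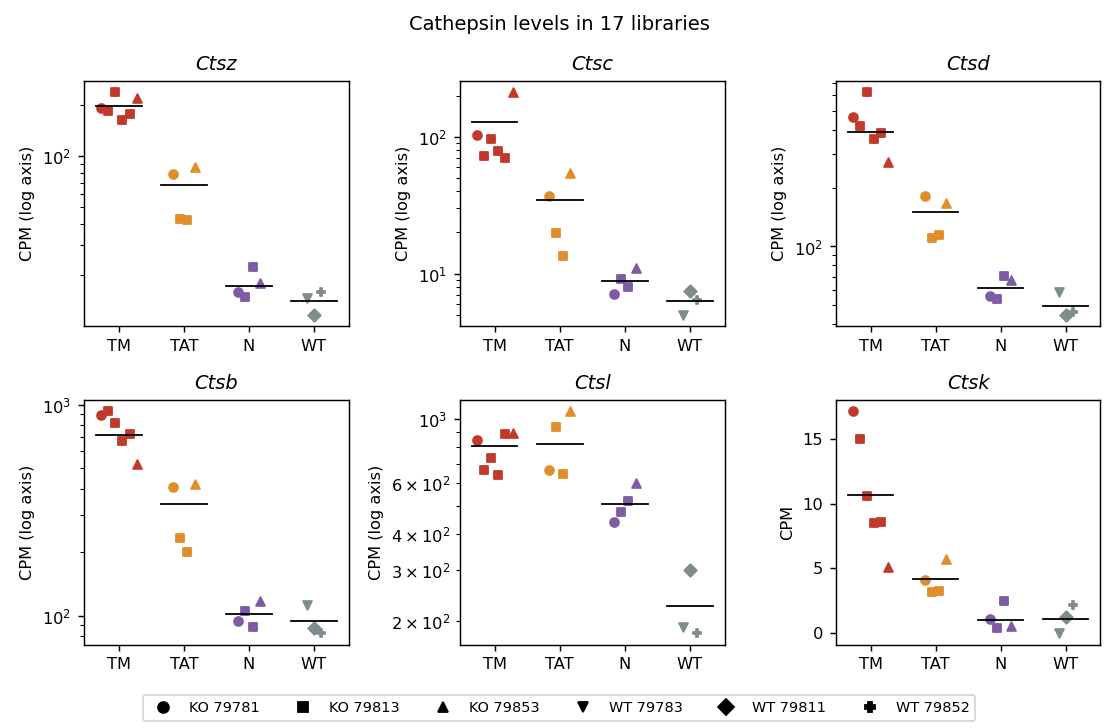
CPM (vertical axis, log scale except for *Ctsk*) of 6 cathepsin genes in all 17 libraries by region, with the animal as the symbol and the mean of the 3 animals, after summing libraries per animal, as the line. For *Ctsz*, *Ctsc*, *Ctsd* and *Ctsb* the TM libraries lie highest and the TAT libraries next, whereas for *Ctsl* the TM and TAT libraries overlap.

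*Ctsl*, like *Ctsh*, was not called between TM and TAT. Cathepsin L is secreted by Sertoli cells in rodents and degrades proteins of the tubule wall. *Ctsl* (chr13:64359337-64370890, minus strand) had 805, 773 and 852 CPM in TM, 653, 774 and 1029 in TAT, 434, 493 and 597 in N and 189.9, 306 and 181 in WT. Every KO piece lay above every WT animal, and TAT and TM overlapped. The log2 fold change against WT was 1.84 ± 0.26 (adjusted p = 0.000161) in TM, 1.86 ± 0.26 (adjusted p = 0.00145) in TAT and 1.17 ± 0.26 (adjusted p = 0.225) in N, the last not called. TM against TAT gave 0.04 ± 0.18 (adjusted p = 0.879) for *Ctsl* and was not called. Among 10 Sertoli markers, 2 were called higher and 2 lower in TM, 2 were called higher in TAT, and the summed level was 3132 to 4815 CPM in TM, 5016 to 5671 CPM in TAT and 3274 to 3291 CPM in N, against 1898 to 2577 CPM in WT. The part of Sertoli cell RNA in the level of *Ctsl* was not tested. An antisense gene covers 26.8% of the exon bases of *Ctsl* and a processed pseudogene 6.09%, and neither was analysed here.

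Among the cathepsins with lower levels, *Ctsf*, a cysteine protease, had 34.7, 40.9 and 18 CPM in TM, 37.6, 25.4 and 24 in TAT, 16.5, 17.1 and 16.1 in N and 10.8, 12.6 and 10.6 in WT. TM and TAT overlapped for *Ctsf* and both lay above WT, with log2 fold changes of 1.46 ± 0.31 (adjusted p = 0.00168) and 1.35 ± 0.31 (adjusted p = 0.0108) for TM and TAT. *Ctsk*, the collagen-degrading protease of osteoclasts, had 16.4, 10.8 and 4.85 CPM in TM, 4.0, 3.17 and 5.47 in TAT, 1.08, 1.44 and 0.529 in N and 0, 1.26 and 2.15 in WT, and only TM was called, with 3.11 ± 0.84 (adjusted p = 0.00720). *Ctsk* was not called without KO animal 79781 (2.69, adjusted p = 0.0643 by edgeR). *Ctso* had 14.2, 14.2 and 12 CPM in TM, 12.8, 10.1 and 9.85 in TAT, 5.85, 8.91 and 8.62 in N and 1.94, 8.8 and 6.11 in WT, and was called in TM alone, with 1.22 ± 0.44 (adjusted p = 0.0303). The call of *Ctso* was lost without any of the KO animals 79781, 79813 and 79853 or the WT animals 79783 and 79852, with log2 fold changes of 0.84 to 1.29. *Ctse*, an aspartic protease, stayed under 1 CPM in every animal and region and was not called. *Ctsw*, known from cytotoxic lymphocytes, was below the filter at 0.793 CPM or less in every animal and region. Among single libraries, both were highest in tumour 3 of testis 2 of KO animal 79813 (1.19 and 1.91 CPM).

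The V0 sector, which holds the proton-conducting ring, was higher in TM in 7 of 8 genes tested and lower in none. In TAT 3 were called higher. The largest change among V0 genes with counts in every region was that of *Atp6v0e2*, an isoform of the small subunit e. *Atp6v0e2* (chr6:48537615-48541801, plus strand) had 83.2, 75 and 105 CPM in TM, 35.5, 26.3 and 44.8 in TAT, 17.1, 21.8 and 21.5 in N and 6.36, 21.9 and 18.9 in WT. TM lay above all other pieces, and TAT above N and WT. Its log2 fold change was 2.46 ± 0.39 (adjusted p = 0.000267) in TM and 1.15 ± 0.37 (adjusted p = 0.0477) in TAT. The TAT call of *Atp6v0e2* was lost in 8 of 14 alternatives, among them without KO animal 79781 (1.16, adjusted p = 0.187 by edgeR), without KO animal 79853 (0.94, adjusted p = 0.156), without WT animal 79783 (0.80, adjusted p = 0.0792) and without WT animal 79852 (1.30, adjusted p = 0.0833). *Atp6v0e*, the widely expressed isoform, had 246, 276 and 207 CPM in TM, 262, 197 and 265 in TAT, 155, 132 and 143 in N and 103, 104 and 116 in WT, in overlapping ranges in TM and TAT and above WT in both. Its log2 fold change was 1.17 ± 0.20 (adjusted p = 0.000449) in TM and 1.16 ± 0.20 (adjusted p = 0.00291) in TAT, and the TAT call was lost without KO animal 79781 (1.10, adjusted p = 0.0575 by edgeR).

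The other V0 genes of the ring and stalk changed less. *Atp6v0c*, which encodes the proteolipid c of the ring, had 265, 272 and 220.3 CPM in TM, 199, 174 and 209.8 in TAT, 149, 158 and 177 in N and 176, 145 and 137 in WT. *Atp6v0b*, which encodes the related c'' subunit, had 97.3, 121 and 105 CPM in TM, 84.1, 86.2 and 101 in TAT, 68.4, 62.5 and 76.2 in N and 47.9, 69.9 and 61.4 in WT. *Atp6v0d1*, the common isoform of subunit d, had 118, 102 and 89.5 CPM in TM, 73.6, 75 and 78.5 in TAT, 63.3, 60.6 and 62.2 in N and 84.9, 45.9 and 55 in WT. TM lay above WT in every animal for all of them, though the lead of *Atp6v0d1* over WT animal 79783 was small. The log2 fold changes in TM were 0.73 ± 0.19 (adjusted p = 0.00643), 0.85 ± 0.20 (adjusted p = 0.00364) and 0.74 ± 0.23 (adjusted p = 0.0157) for *Atp6v0c*, *Atp6v0b* and *Atp6v0d1*, and none was called in TAT. Without KO animal 79781 the calls of *Atp6v0c* (0.69, adjusted p = 0.0621 by edgeR) and *Atp6v0d1* (0.63, adjusted p = 0.116) were lost, the second also without WT animal 79811 (0.56, adjusted p = 0.0762) or 79852 (0.66, adjusted p = 0.0663). Processed pseudogenes of *Atp6v0c* are annotated and were not analysed here, so its counts could hold their reads.

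Subunit a, which steers the pump to its membrane, has several isoforms. *Atp6v0a1* had 44.7, 34.6 and 30.4 CPM in TM, 27.5, 21.2 and 31.2 in TAT, 19.5, 19.1 and 16.9 in N and 3.54, 17.6 and 18.2 in WT, with WT animal 79783 far below the other WT animals. Its log2 fold change in TM was 1.45 ± 0.44 (adjusted p = 0.0141), and the call was lost without KO animal 79781 (1.28, adjusted p = 0.0912 by edgeR). *Atp6v0a2* had 26, 30.8 and 32.6 CPM in TM, 25.6, 20.0 and 25.5 in TAT, 13, 16.9 and 17.5 in N and 24.7, 14 and 19.6 in WT and was not called in TM (0.63 ± 0.26 (adjusted p = 0.0539)), although every TM animal was above every WT animal. *Atp6v0a4*, the kidney isoform, was at 1.32 CPM or less in every animal and region. The a3 isoform is encoded by *Tcirg1*, which the symbols chosen here leave out. *Tcirg1* had 11.2, 15.9 and 11.2 CPM in TM, 1.67, 3.32 and 8.92 in TAT, 3.70, 1.5 and 1.34 in N and 2.47, 2.51 and 2.82 in WT, and was called in TM (log2 fold change 2.30 ± 0.62, adjusted p = 0.00705).

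*Atp6v0d2*, the isoform of subunit d found in osteoclasts and macrophages, had no counts in WT. It had 5.39, 3.37 and 4.2 CPM in TM, 0.76, 0.444 and 0.574 in TAT, 0.086, 0.272 and 0.685 in N and 0 in WT. With 0 counts in all WT libraries, the floor of 3 counts over the WT group was 0.0528 CPM. The mean of *Atp6v0d2* was 81.9-fold above this floor in TM, 11.2-fold in TAT and 6.59-fold in N. *Atp6v0d2* was called in TM (adjusted p = 0.000370 by edgeR) and in TAT (adjusted p = 0.0106 by edgeR, 0.0691 without KO animal 79781). In N it was not called (adjusted p = 0.293 by edgeR), and N of animal 79781 held 2 counts. Of 5 osteoclast and giant cell markers tested, 2, *Itgb3* and *Mmp9*, were called higher in TM. Their summed level over 6 genes in the table was 22.3 to 38.2 CPM in TM, 9.25 to 14.7 CPM in TAT and 4.47 to 4.89 CPM in N, against 0.530 to 5.36 CPM in WT. *Calcr*, the calcitonin receptor of osteoclasts, had 0 counts in TM and TAT. It was also at 0.620 CPM or less in every N and WT animal and was not tested, so its absence is not particular to TM.

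**Figure D3:**
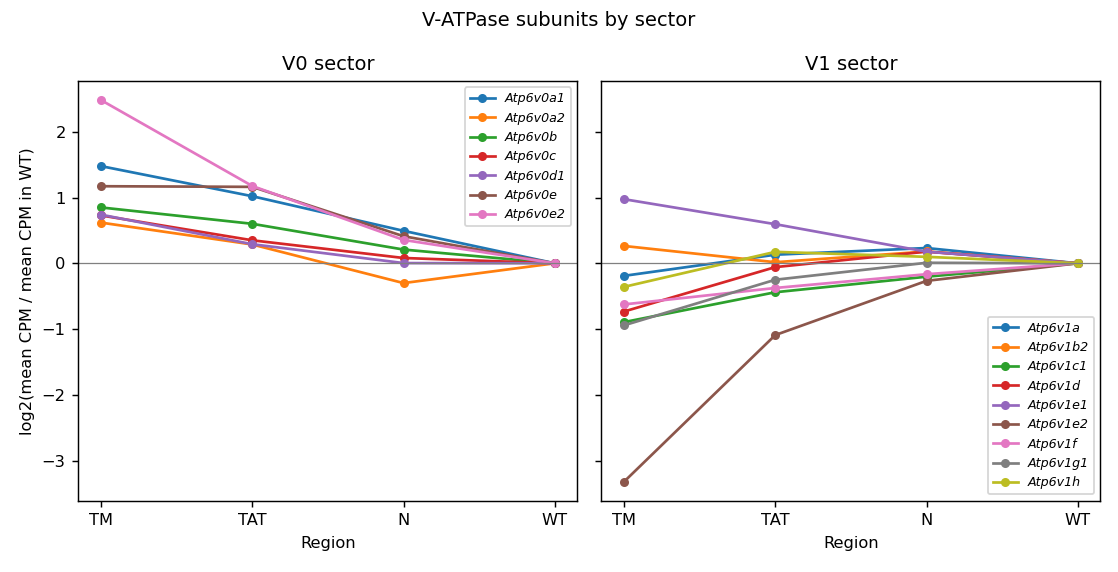
Mean CPM of V0 genes (left) and V1 genes (right) in each region over the mean in WT, on a log2 scale, for genes with a mean of at least 10 CPM in some region. Points are means of 3 animals. All V0 genes shown lie above 0 in TM, whereas among the V1 genes *Atp6v1e1* is the highest in TM and most others lie below 0.

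Of 12 V1 genes tested, 6 were called lower, 1 higher and 5 not at all in TM, and none was called in TAT. On total counts in place of TMM, 3 were called lower and 2 higher, where 27.1% of all genes were called lower and 33.6% higher. The gene called higher was *Atp6v1e1*, the widely expressed isoform of the stalk subunit E. *Atp6v1e1* (chr6:120794305-120822793, minus strand) had 85.2, 122 and 102 CPM in TM, 76.6, 72.5 and 88.5 in TAT, 54.3, 62.3 and 61.2 in N and 56.2, 47.3 and 53.8 in WT, with TM above WT in every animal, and its log2 fold change in TM was 0.98 ± 0.20 (adjusted p = 0.00126). *Atp6v1e2* (chr17:86944109-86947897, minus strand), the isoform of subunit E made in the testis and placed on the acrosome, had 8.22, 13.6 and 1.9 CPM in TM, 40.0, 45.6 and 25.4 in TAT, 63.8, 71.8 and 61 in N and 57.3, 101 and 78.4 in WT. The TM animals lay below all TAT animals, and these below all N and WT animals. The log2 fold change of *Atp6v1e2* was -3.30 ± 0.54 (adjusted p = 0.000324) in TM and -1.09 ± 0.49 (adjusted p = 0.136) in TAT, the second not called. Within TM its order over the animals was that of the summed spermatid markers, which were 1220, 3552 and 462 CPM in TM of animals 79781, 79813 and 79853. *Ctsd*, *Ctss* and *Ctsf*, which were called higher in TM, had the same order over the animals, as did the summed macrophage markers. The part of germ cell RNA in the level of *Atp6v1e2* was not tested.

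The abundant V1 genes fell by less. *Atp6v1g1*, the common isoform of the stalk subunit G, had 291, 423 and 252 CPM in TM, 543, 555 and 462 in TAT, 684, 667 and 514 in N and 654, 640.1 and 562 in WT. *Atp6v1c1*, the common isoform of subunit C that links the sectors, had 45.2, 61.9 and 42.7 CPM in TM, 71.4, 79.8 and 54.1 in TAT, 75.3, 99 and 67.5 in N and 98.3, 95.6 and 84.7 in WT. For both of them TM lay below all WT animals, and the log2 fold changes in TM were -0.94 ± 0.23 (adjusted p = 0.00408) for *Atp6v1g1* and -0.89 ± 0.23 (adjusted p = 0.00614) for *Atp6v1c1*. Both calls were lost without KO animal 79781 (-0.88, adjusted p = 0.0560, and -0.83, adjusted p = 0.0615, by edgeR), and that of *Atp6v1c1* also on total counts, where its fold change was -0.57. *Atp6v1d* and *Atp6v1f* encode the rotor D and F that carries the turning movement to the ring. *Atp6v1d* had 122, 185 and 107 CPM in TM, 225, 249 and 187 in TAT, 265, 275 and 238 in N and 181, 292 and 215 in WT. *Atp6v1f* had 178, 234 and 229.9 CPM in TM, 260.1, 286 and 218 in TAT, 299, 307 and 277 in N and 304, 355 and 331 in WT. The TM animals of *Atp6v1f* lay below all WT animals, whereas for *Atp6v1d* TM of animal 79813 lay just above WT animal 79783. In TM edgeR gave log2 fold changes of -0.73 ± 0.26 (adjusted p = 0.0261) for *Atp6v1d* and -0.63 ± 0.19 (adjusted p = 0.0154) for *Atp6v1f*. On total counts neither was called (-0.41 for *Atp6v1d* and -0.30 for *Atp6v1f*). Without KO animal 79781 neither was called either (-0.66 and -0.51), *Atp6v1d* and *Atp6v1f* were not called without WT animal 79811 (-0.53 and -0.58), and *Atp6v1d* was not called without KO animal 79853 (-0.58).

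Of the subunits that form the catalytic head, the common ones were not called and the kidney isoform of B was called lower. *Atp6v1a*, which encodes the ATP-hydrolysing subunit A, had 70.7, 85.8 and 64.1 CPM in TM, 82.8, 94.1 and 98.9 in TAT, 98.6, 91.3 and 106 in N and 82, 88.2 and 81.6 in WT, with a log2 fold change in TM of -0.19 ± 0.18 (adjusted p = 0.388) whose sign was positive on total counts. *Atp6v1b2*, the common isoform of subunit B, had 37.4, 46.6 and 32.3 CPM in TM, 35.9, 32 and 30.1 in TAT, 39.3, 37 and 33.4 in N and 43, 29.9 and 24.1 in WT and a log2 fold change of 0.27 ± 0.24 (adjusted p = 0.354) in TM. *Atp6v1b1*, the kidney isoform of B, had 0.457, 0.503 and 0 CPM in TM, 0.862, 2.71 and 0.313 in TAT, 3.01, 1.92 and 1.59 in N and 3.01, 3.37 and 1.43 in WT, and was called lower in TM with -2.96 ± 1.10 (adjusted p = 0.0348). That call was lost without any of the KO animals 79781, 79813 and 79853 or the WT animals 79783 and 79811, with log2 fold changes of -3.47 to -2.42. *Atp6v1h*, which regulates the joining of the sectors, had 38.7, 44.4 and 32.2 CPM in TM, 54.3, 61.7 and 50.7 in TAT, 55.6, 59 and 43.7 in N and 54.3, 47 and 46.6 in WT and a log2 fold change of -0.36 ± 0.21 (adjusted p = 0.151) in TM. The remaining V1 isoforms were low. *Atp6v1g2*, known from neurons, was at 2.23 to 5.44 CPM in TM, 2.87 to 7.2 CPM in TAT and 4.67 to 7.46 CPM in N, against 4.77 to 6.78 CPM in WT. *Atp6v1c2* was at 1.81 CPM or less in every animal and region. *Atp6v1g3*, a kidney isoform, had 0 counts in TM, N and WT and was at 0.608 CPM in 1 TAT animal.

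The accessory genes were split, with 2 higher and 1 lower in TM. *Atp6ap1* (chrX:74297097-74304721, plus strand), which encodes the Ac45 subunit needed to assemble the pump, had 89.5, 85.3 and 77.2 CPM in TM, 51.7, 39.2 and 47.2 in TAT, 22.3, 19.1 and 20.7 in N and 6.72, 12.3 and 9.83 in WT. TM lay above TAT, TAT above N and N above WT with no overlap between any of them. Against WT, *Atp6ap1* changed by a log2 of 3.11 ± 0.25 (adjusted p = 2.11e-05) in TM, 2.24 ± 0.24 (adjusted p = 0.000795) in TAT and 1.09 ± 0.24 (adjusted p = 0.224) in N, the last not called. *Atp6ap2*, the (pro)renin receptor, had 40.8, 31.5 and 30.0 CPM in TM, 26.6, 16.2 and 30.4 in TAT, 15.4, 11.6 and 9.93 in N and 7.95, 10.2 and 13.1 in WT, with log2 fold changes of 1.70 ± 0.31 (adjusted p = 0.000687) in TM and 1.21 ± 0.31 (adjusted p = 0.0179) in TAT. The TAT call of *Atp6ap2* was lost without KO animal 79781 (1.15, adjusted p = 0.109 by edgeR) and in 4 other alternatives. *Atp6ap1l* (chr13:90883433-90905355, minus strand), a relative of *Atp6ap1* by name, had 14.5, 42.9 and 4.2 CPM in TM, 89.9, 125 and 84.8 in TAT, 183, 156 and 164 in N and 138, 164 and 151 in WT. Every TM animal lay below all TAT animals, and these below all N animals. The log2 fold change of *Atp6ap1l* was -2.87 ± 0.59 (adjusted p = 0.00134) in TM. Its order within TM was again that of the spermatid markers, which *Ctsd*, *Ctss*, *Ctsf* and the summed macrophage markers also had.

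*Lamp1* and *Lamp2* moved in opposite directions in TM. *Lamp2* (chrX:38401357-38456454, minus strand), whose isoforms take part in the fusion of autophagosomes with lysosomes and in the uptake of proteins for degradation, had 161, 154 and 134 CPM in TM, 98.5, 64.8 and 91.4 in TAT, 48.4, 51.7 and 49.3 in N and 47.4, 51.8 and 43.3 in WT. TM lay above TAT and TAT above N and WT in every animal. For *Lamp2* the log2 fold change was 1.66 ± 0.21 (adjusted p = 8.21e-05) in TM and 0.84 ± 0.20 (adjusted p = 0.0145) in TAT, and the TAT call was lost without KO animal 79781 (0.72, adjusted p = 0.145 by edgeR), without KO animal 79853 (0.78, adjusted p = 0.0585) or without WT animal 79852 (0.77, adjusted p = 0.0650). *Lamp1* (chr8:13159161-13175338, plus strand), a common marker of the lysosome membrane, had 181, 265 and 182 CPM in TM, 238, 299.5 and 218 in TAT, 294, 331 and 299 in N and 467, 311 and 284 in WT. All TM animals lay below all WT animals, and WT animal 79783 was far above the other WT animals. For *Lamp1* the log2 fold change was -0.76 ± 0.25 (adjusted p = 0.0199) in TM, and the call was lost without WT animal 79783 (-0.51, adjusted p = 0.0872 by edgeR), without KO animal 79781 (-0.67, adjusted p = 0.139) or 79853 (-0.66, adjusted p = 0.0822) and on total counts (-0.44). The call was also lost with limma-voom on single pieces (-0.57, a fold under 1.5) and in the fit of TM and WT alone (-0.69). Exons of *Lamp1* share 9.31% of their bases with *Grtp1* on the opposite strand, and *Grtp1* had 15.6, 41.2 and 8.91 CPM in TM, against 114, 105 and 109 CPM in WT. Whether reads of *Grtp1* add to the fall of *Lamp1* was not tested. *Lamp5*, known from neurons and plasmacytoid dendritic cells, had 0, 0.0305 and 0 CPM in TM, 0, 0.677 and 0.156 in TAT, 1.55, 0.595 and 0.529 in N and 1.77, 1.16 and 0.239 in WT, with 2 counts in all TM libraries together. It was called lower in TM (adjusted p = 0.0149 by edgeR, 0.0643 without KO animal 79853). *Lamp3*, known from mature dendritic cells, was at 1.19 CPM or less in every animal.

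**Figure D4:**
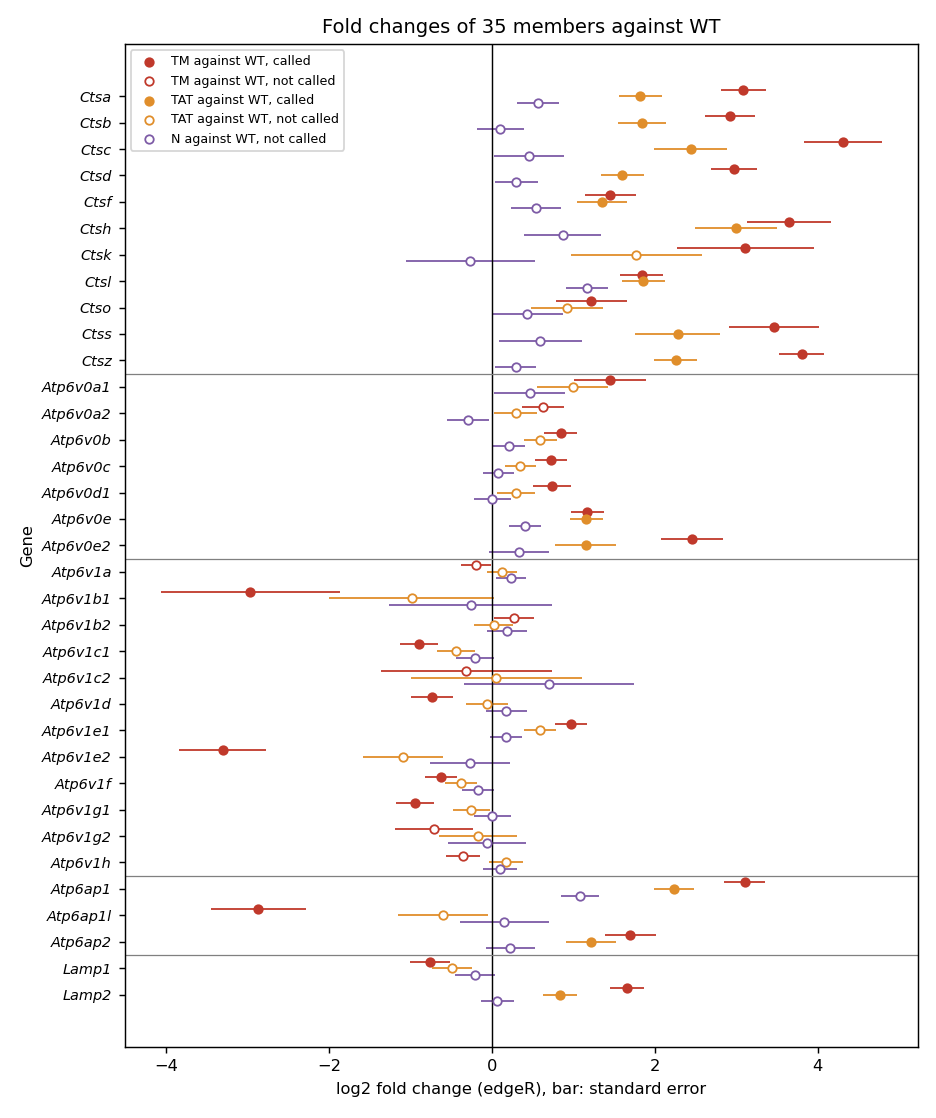
Log2 fold change (horizontal axis) of 35 tested genes in TM, TAT and N against WT, with standard errors from edgeR as bars, filled when called and open when not. *Ctse*, *Atp6v0d2* and *Lamp5* are left out because 1 of the groups was at or near 0. N lies near 0 for most genes, with *Ctsl* and *Atp6ap1* the highest of its points.

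The shares within pairs of genes put the same changes on a scale that no normalization touches. The pairs are isoforms of a V-ATPase subunit, except *Lamp2* with *Lamp1*, which are separate proteins, and *Atp6ap1l* with *Atp6ap1*, paired by name. Each share is the part of a pair's summed counts, compared between regions only, since counts of different genes are not on 1 scale. *Atp6v1e2* made up 8.81, 10.01 and 1.83% of the counts of *Atp6v1e1* and *Atp6v1e2* in TM, 34.3, 38.6 and 22.3% in TAT and 54.0, 53.5 and 49.9% in N, against 50.5, 68.1 and 59.3% in WT. *Atp6ap1l* made up 14.0, 33.5 and 5.15% of its pair with *Atp6ap1* in TM, 63.5, 76.1 and 64.2% in TAT and 89.2, 89.1 and 88.8% in N, against 95.4, 93.0 and 93.9% in WT. For *Atp6ap1l* the N animals lay below the WT animals without overlap, with means of 89.0% and 94.1%. *Lamp2* made up 47.1, 36.8 and 42.3% of its pair with *Lamp1* in TM, 29.3, 17.8 and 29.5% in TAT and 14.1, 13.5 and 14.2% in N, against 9.21, 14.3 and 13.2% in WT. *Atp6v0e2* made up 25.3, 21.4 and 33.7% of its pair with *Atp6v0e* in TM, 11.9, 11.8 and 14.5% in TAT and 9.93, 14.2 and 13.1% in N, against 5.81, 17.4 and 14.0% in WT. Of the 9 pairs examined, TM did not overlap WT in these 4, nor for the low isoforms *Atp6v1b1* and *Atp6v0d2* in their pairs with *Atp6v1b2* and *Atp6v0d1*. Where 3 animals do not overlap 3 others, an exact two-sided permutation test can only give p = 0.1, as it did in each of these pairs. It therefore adds nothing to the absence of overlap. In the other 3 pairs TM and WT overlapped, and the exact p was 0.5 for *Atp6v1c2* with *Atp6v1c1*, 0.5 for *Atp6v1g2* with *Atp6v1g1* and 0.4 for *Atp6v0a2* with *Atp6v0a1*.

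**Figure D5:**
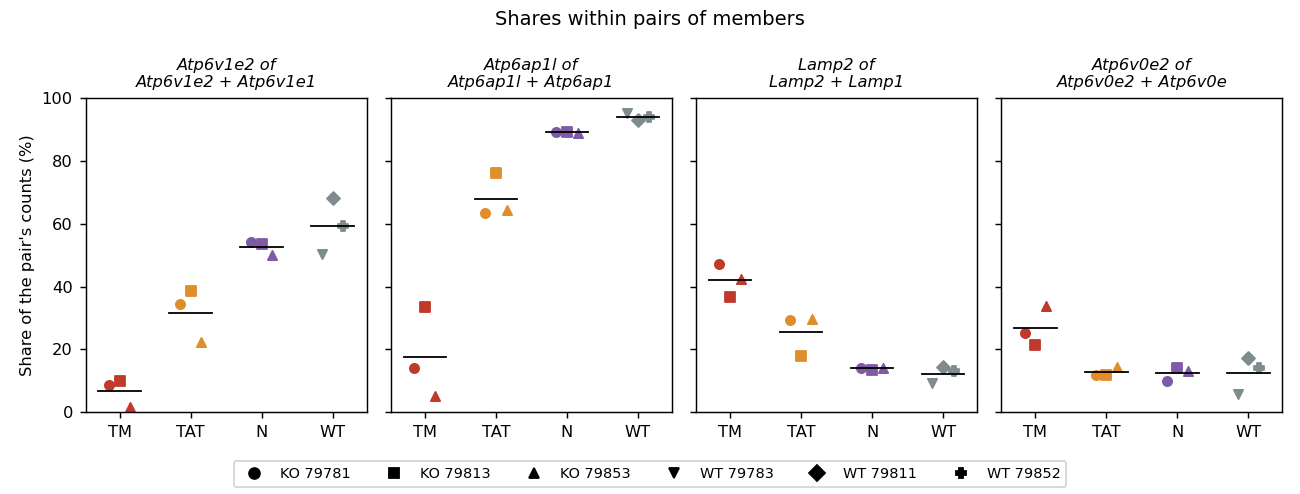
Share of a pair's counts (vertical axis, percent) taken by *Atp6v1e2*, *Atp6ap1l*, *Lamp2* and *Atp6v0e2* in each animal (symbols) of each region, with means as lines. *Atp6v1e2* and *Atp6ap1l* lose share towards TM, and *Lamp2* and *Atp6v0e2* gain it.

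Within KO animals the regions were compared with the animal as a block. Against N, 22 of the 38 genes were called higher and 7 lower in TM, where 53.5% of all 19293 genes tested were called (24.9% higher and 28.5% lower). Against TAT, 10 were called higher and 4 lower in TM, where 25.3% of all genes were called (7.65% higher and 17.7% lower). The 10 were *Ctsa*, *Ctsb*, *Ctsc*, *Ctsd*, *Ctss*, *Ctsz*, *Atp6v0d2*, *Atp6v0e2*, *Atp6ap1* and *Lamp2*, with log2 fold changes of 0.86 for *Lamp2* to 2.90 for *Atp6v0d2*. The 4 were *Atp6v1d*, *Atp6v1e2*, *Atp6v1g1* and *Atp6ap1l*. *Ctsc* gave 1.92 ± 0.31 (adjusted p = 0.0164), *Ctsz* 1.61 ± 0.26 (adjusted p = 0.0164) and *Atp6v1e2* -2.38 ± 0.45 (adjusted p = 0.0164) for TM against TAT. Without KO animal 79781, which left 2 animals, the counts were 11 against N, where 15.6% of all genes were called, and 0 against TAT, where 0.0% of all genes were called. TAT and N were not told apart by the test, with 0 of 38 called as for 0.0% of all genes, 16 with an unadjusted p under 0.05 (23.4% of all genes), and adjusted p values of 0.0661 for the lowest, such as *Ctsz* (1.95 ± 0.27 (adjusted p = 0.0661)) and *Ctsb* (1.73 ± 0.32 (adjusted p = 0.0661)). Some other settings called 10 to 13 of them, all but 1 higher in TAT, namely edgeR on single pieces (13, where 13.2% of all genes were called), limma-voom on single pieces (12, 10.1%), DESeq2 (11, 19.3%), total counts (11, 6.31%) and leaving out KO animal 79813 (10, 7.37%).

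An ordered level, TM above TAT above N in each of the 3 KO animals, was seen in 16 of the 38 genes, against 15.4% of all genes tested. They were 8 cathepsins (*Ctsa*, *Ctsb*, *Ctsc*, *Ctsd*, *Ctsh*, *Ctso*, *Ctss* and *Ctsz*), 5 V0 genes (*Atp6v0a2*, *Atp6v0b*, *Atp6v0c*, *Atp6v0d1* and *Atp6v0e2*), *Atp6v1e1*, *Atp6ap1* and *Lamp2*. The reverse order was seen in 6 of the 38, against 24.2% of all genes, namely *Atp6v1c1*, *Atp6v1d*, *Atp6v1e2*, *Atp6v1g1*, *Atp6ap1l* and *Lamp1*. The TAT pieces themselves were not alike. TAT of animal 79813 was the lowest of the 3 for 17 of the 22 genes called higher in TM and the highest for all 9 called lower. It also had the highest summed spermatid markers among the TAT animals (11667 CPM, against 8362 and 4568 CPM in animals 79781 and 79853) and the lowest fibroblast markers (821 CPM, against 1422 and 2911 CPM). Their part in this order was not tested. How often TAT of animal 79813 was the lowest or the highest was not counted over all genes. The order is therefore not shown to be particular to the genes described here.

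The 4 TM libraries of animal 79813 show the spread within 1 animal. For 34 of the 38 genes their range was narrower than the range of the 4 region means, and for *Ctso*, *Ctse*, *Atp6v1b2* and *Atp6v1g2* it was not, *Atp6v1b2* spanning 32.8 to 54.7 CPM among these libraries and 32.3 to 38.8 CPM among the region means. *Ctsz* ranged over 162 to 238 CPM, *Ctsb* over 673 to 936 CPM, *Ctsd* over 359 to 624 CPM and *Lamp2* over 138 to 156 CPM in these libraries. *Atp6ap1l* ranged over 23.8 to 52.5 CPM in them, all above TM of the other 2 animals (15.2 and 4.43 CPM), and *Atp6v1e2* over 8.92 to 14.4 CPM (8.62 and 2.01 CPM in the other 2). The CPM of single libraries are scaled apart from those of summed libraries and differ slightly from them.

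The wider pathway was read from lists of genes outside the symbols above. Of all genes tested, 27.8% were called higher and 30.6% lower in TM, and 14.4% higher and 4.61% lower in TAT. Of 40 other lysosomal hydrolases and their cofactors, 31 were called higher and 2 lower in TM, and 24 higher in TAT, with a median log2 fold change in TM of 2.01 beside -0.07 for all genes. *Aga*, which cleaves asparagine from sugars, *Npc2*, which hands on cholesterol, and *Scpep1*, a carboxypeptidase, had log2 fold changes of 2.23, 1.86 and 2.48. The 2 lower were *Arsa*, arylsulfatase A (-2.29), and *Ppt1*, a thioesterase (-0.84). Of 22 other proteins of the lysosome membrane, 13 were called higher and 1, the amino acid transporter *Slc38a9* (-1.66), lower in TM, and 8 higher in TAT. *Cd63*, a tetraspanin of late endosomes, averaged 1004 ± 251 CPM in TM and 120.1 ± 5.54 CPM in WT (SD, n = 3 each). *Cd68*, *Gpnmb* and *Laptm5* of this list are also known from macrophages and were among those called higher in TM.

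The genes that sort, inhibit and control these enzymes were more mixed, and their counts are to be read beside the 27.8% of all genes called higher and 30.6% called lower in TM. Of 12 genes of mannose 6-phosphate and sortilin sorting, 6 were called higher and 2 lower in TM, with log2 fold changes of 1.90 for *M6pr*, the cation-dependent receptor, 1.52 for *Ap1s1*, -2.17 for *Sort1*, which encodes sortilin, and -1.77 for *Ap1m1*. Of 14 cathepsin inhibitors tested, 3 were called higher and 3 lower. *Cstb*, cystatin B, averaged 129 ± 10.6 CPM in TM and 20.2 ± 3.52 CPM in WT, while *Cst8*, *Cst9* and *Cst13*, cystatins of the male tract, were the lower ones, *Cst8* at 44.1 ± 36.6 CPM in TM and 588 ± 103 CPM in WT. Of 12 genes of V-ATPase assembly and regulation, a list that also holds *Rab7* and *Rnaset2a*, 6 were called higher and 1, *Rogdi* (-1.77), lower, and the assembly factor *Vma21* changed by 1.79. Of 16 genes of the MiT transcription factors and nutrient sensing, 6 were called higher and 2 lower in TM. *Tfe3* had 22.1, 28.1 and 21.2 CPM in TM, 28.2, 17.9 and 23.1 in TAT, 8.08, 11.1 and 8.25 in N and 7.78, 4.53 and 8.35 in WT, and was called in TM (1.80 ± 0.31, adjusted p = 0.000499) and TAT. *Tfeb*, at 2.28 CPM or less in every animal, and *Mitf*, at 5.05 CPM or less, were not called. *Lamtor4* and *Lamtor3*, which anchor nutrient sensing at the lysosome, were called higher (2.06 and 1.55), and *Mtor* and *Fnip1* lower (-1.70 and -1.69). In N no gene of any of these lists was called, where 0.0404% of all genes were called.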

How the data were processed

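RNA of dissected testis pieces was sequenced by the authors in 17 libraries, whose cDNA was primed from the poly(A) tail, carried molecular identifiers and was amplified as a pool before tagmentation. The values deposited by the authors are estimated counts (expected counts) per gene, after mapping with STAR to GRCm38 and, according to the methods, quantification with Salmon. The submitters' processing notes name STAR 2.6.1d and featureCounts of Subread 2.0.1. Annotation release and duplicate removal are not given in the sources used here. Strand use is not stated outright, and the name of the deposited sheet breaks off after letters that may begin the word forward. Of the deposited values, 9.09% were not whole. Reads of such libraries lie mostly near the 3' end of a transcript, so levels were compared between samples and not between genes.

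Counts were summed per animal and region, rounded, and tested in R 4.3.3 with edgeR 4.0.16 (filterByExpr, TMM, glmQLFit and glmQLFTest), with Benjamini-Hochberg adjustment over all genes tested. TM, TAT and N were each compared with WT in 1 fit of all 12 summed libraries (6349355 to 65236050 counts), and with each other in the 9 summed KO libraries, blocked by animal. The labels give the regions of a KO animal the same number, and deviations from region means correlated by 0.14 on average within an animal (0.0381 to 0.446, 9 pairs) and by -0.0696 between animals (18 pairs). CPM are TMM-scaled. Errors after a log2 fold change are standard errors and those after a mean are SD. The floor for a gene at 0 in a whole group was 3 counts over that group, and covers counting error only.

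Alternatives were single pieces as replicates in edgeR or in limma-voom (limma 3.58.1, the study's method), DESeq2 1.42.0, its RLE size factors, total library size, no filter, no fold threshold, only testis 1 of KO animal 79813, only the 2 groups compared, no block, and each animal left out. Scripts were tested on simulated data. The genes, lists and alternatives were chosen with earlier results of these data known. Values by animal are given for genes called against WT with at least 10 CPM in some region, for isoform sets, for Lamp genes and for genes that moved against their class, and up to 4 genes of each pathway list with the smallest p in TM, with those against the majority of the list. A gene that this rule names is not reported here. Lists of T and NK cell, neutrophil and mast cell, myoid, Leydig, spermatocyte and spermatogonium markers were also counted. In TM they gave 0 higher and 1 lower of 3 tested, 2 and 1 of 7, 5 and 0 of 6, 3 and 4 of 8, 0 and 6 of 6, and 3 and 0 of 6. Of all genes, 27.8% were called higher and 30.6% lower in TM.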

Additional observations from a re-analysis of the deposited data

Results flagged for a closer look

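Within a region of 4 or 6 libraries, a library was picked out when its gap to the nearest other library was large against the range of the region (Dixon's criterion at 95%). Of 114 pairs of a gene and a region examined, 6 met it. Chance flags about 1 in 20 only where libraries are independent. Here 4 of the 6 TM libraries and 2 of the 4 in each of TAT and N came from KO animal 79813, so that rate does not apply. *Ctsc* was 212.6 CPM in TM of KO animal 79853, against 69.7 to 103.1 CPM in the other TM libraries. *Atp6ap2* was 42.7 CPM in TM of KO animal 79781, against 26.6 to 31.6 CPM in the others. *Ctsf* was 38.5 CPM in TAT of KO animal 79781, against 24.98 to 26.2 CPM in the others. *Lamp2* was 56.0 CPM in N of testis 1 of KO animal 79813, against 48.7 to 49.8 CPM in the others. *Ctse* was 0.351 CPM in TAT of testis 2 of KO animal 79813 and *Lamp5* 0.103 CPM in tumour 3 of the same testis, with the other libraries of their regions at 0.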

How the results depend on the processing

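No call changed direction under any alternative run. In single pieces, limma-voom, DESeq2 and the fit of N and WT alone, the number of genes called in N against WT was 1, 1, 2 and 1 (0.219, 0.139, 1.03 and 0.941% of all genes), beside 0 (0.0404%). In TAT against N it was 13 on single pieces (13.2% of all genes), 12 with limma-voom (10.1%), 11 with DESeq2 (19.3%), 11 on total library size (6.31%) and 1 with only testis 1 of KO animal 79813 (0.0803%), beside 0 (0.0%). With 1 animal left out, the counts were 20 to 29 for TM against WT (beside 31), 8 to 17 for TAT against WT (beside 15), 0 in every case for N against WT, 0 to 10 for TAT against N, 11 to 26 for TM against N (beside 29) and 0 to 15 for TM against TAT (beside 14). In the same order, the share of all genes called was 43.0 to 55.9%, 3.73 to 26.8%, 0.00479 to 0.0744%, 0.0 to 7.37%, 15.6 to 46.7% and 0.0 to 27.8%. The lowest counts of TM against WT, TAT against WT, TM against N and TM against TAT, and the lowest shares of all genes there, came from leaving out KO animal 79781, after which 2 KO animals remain. Without KO animal 79813, 10 genes were called in TAT against N (7.37% of all genes) and 9 in TM against TAT (20.8%). With no replicate block, the counts were 29 for TM against N (54.2% of all genes), 12 for TM against TAT (19.8%) and 0 for TAT against N (0.0%). Of the genes called, 19 of 31 in TM against WT, 8 of 15 in TAT against WT, 11 of 29 in TM against N and 0 of 14 in TM against TAT were called under every alternative. On total library size, 2 genes that were not called, *Atp6v1a* and *Atp6v1c2*, changed sign in TM against WT. The fit of TM and WT alone called 23 of 36 genes tested (52.3% of all genes). It lost the calls of *Ctso*, *Atp6v0a1*, *Atp6v0d1*, *Atp6v1b1*, *Atp6v1d*, *Atp6v1f* and *Lamp1*. The depth of WT animal 79783 limits genes of a few CPM such as *Ctsk* and *Ctso*. With 3 animals a group, a difference that was not called is not shown to be absent.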
